A study of Rattus norvegicus with 3 samples.

Results

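Genes of the rat proteasome were picked by name, which gave 46 genes, 43 of them for subunits or assembly factors. They are the rows whose symbol begins with Psma, Psmb, Psmc, Psmd or Psme and a number, out of 18560 gene rows in the deposited table. RNA was sequenced from the hippocampus of wild-type rats that were healthy and had received the anticonvulsant candidate Q808 by gavage for 28 days. The 3 samples carry the numbers 1 to 3 and form 1 group, and all of them were treated, so no value here measures an effect of Q808. The columns are headed Con_Q, a prefix that none of the labels explains.

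Only the file of replicate 2, with 15417009 counts, holds proteasome rows. Those of replicates 1 and 3 end after 12 and 307 genes and hold 0 members, so every level below is that of 1 sample. Levels are CPM, the counts of a gene per 1000000 counts of the table, and intervals are exact Clopper-Pearson intervals at 95%, which cover counting error only. CPM is a read yield and is not divided by transcript length, because no length was given in the tables used. Orders and ratios between genes are therefore those of counted reads, not of RNA molecules.

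The proteasome breaks down proteins that have been tagged with ubiquitin. Its 20S core is a barrel with outer rings of alpha subunits, which gate the entry, and inner rings of beta subunits, 3 kinds of which (encoded by Psmb5, Psmb6 and Psmb7) cut peptide bonds. The 19S particle caps the barrel, where its ATPases unfold the substrate and its other subunits bind and remove ubiquitin. Interferon-gamma induces the replacement subunits Psmb8, Psmb9 and Psmb10, which form the immunoproteasome and alter the peptides made for antigen presentation. In neurons the proteasome is known for turning over synaptic proteins.

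Constitutive core and 19S subunit genes were read at similar and fairly high yields, and immunoproteasome genes at much lower ones. The median was 97.5 CPM over the 14 detected core genes, 108 CPM over 24 regulatory genes (19S, its chaperones and the activators) and 3.70 CPM over the 3 immunoproteasome genes. That last value is the level of Psmb9, with Psmb8 at 2.92 CPM and Psmb10 at 22.1 CPM, and the mean of log2 levels gave 6.20 CPM instead. Detection, set at 10 or more counts, held for 45 of the 46 members against 77.0% of all rows. A yield of at least 50 CPM was reached by 33 of 46 members against 25.4% of all rows. Together the members took 0.400% of the counts, and their median lay at the 81.9th percentile of detected genes. None of these values has a replicate check.

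**Figure D1:**
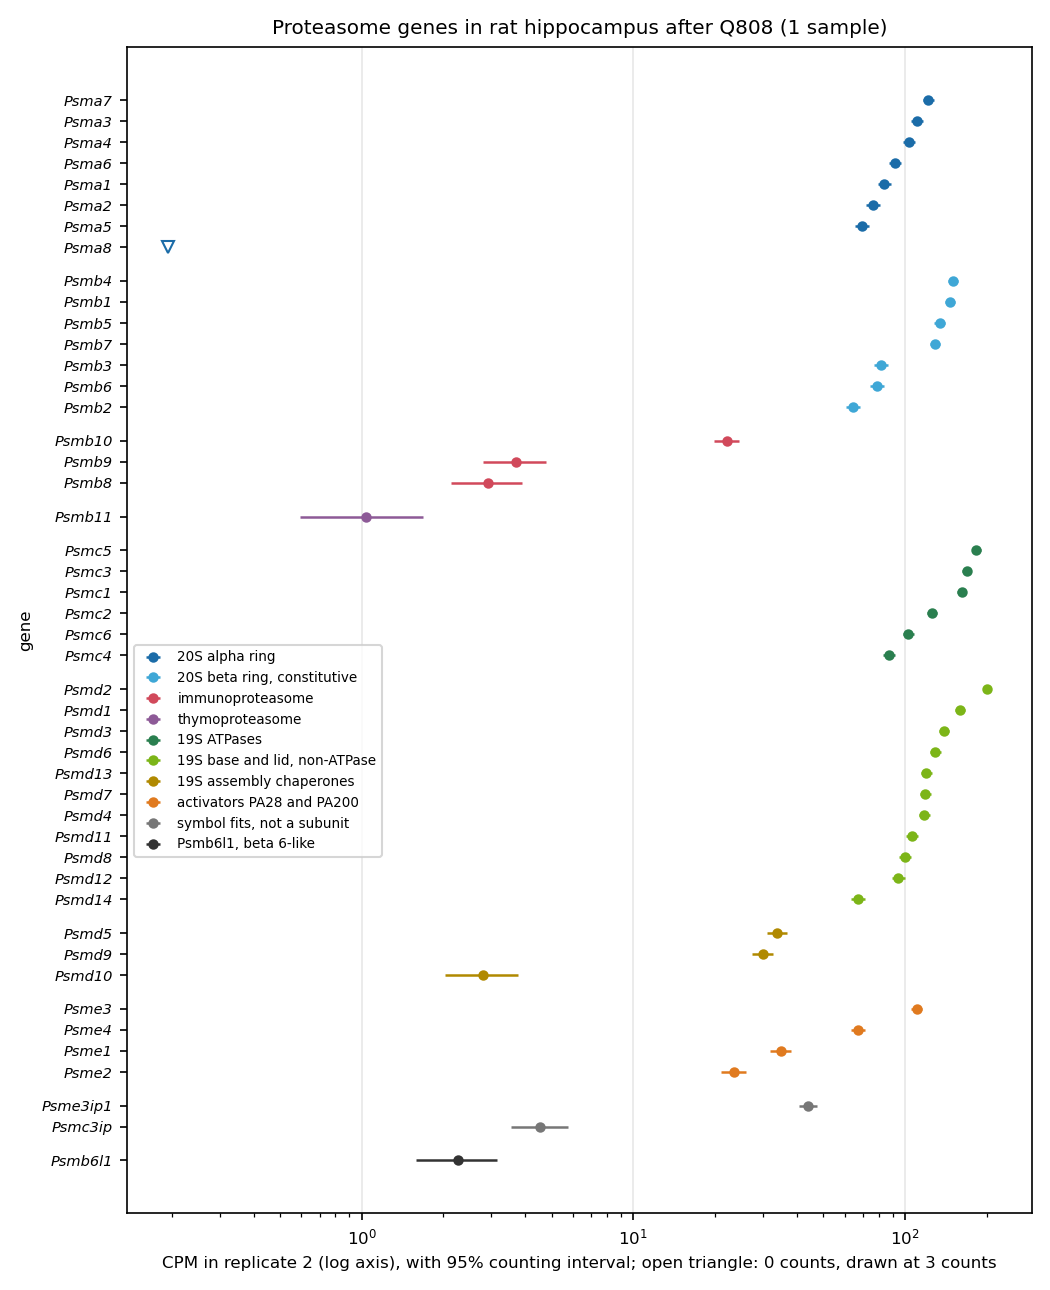
Each point is 1 gene, placed by its CPM in replicate 2 on a log axis with its 95% counting interval, and coloured by its place in the proteasome. Constitutive core genes lie between 64.4 and 150 CPM, Psmb8 and Psmb9 lie under 4 CPM, and the open triangle marks Psma8, which had 0 counts.

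No markers of neurons from other brain regions were read, so the tissue label could not be tested. The list of markers for hippocampal neurons held 10 genes, and some of them, such as Snap25 and Syt1, are general neuron genes. All 10 were detected at 56.4 to 2479 CPM, among them Prox1 of dentate granule neurons at 136 CPM and the CA1 gene Wfs1 at 190 CPM. All 12 microglia markers (6.88 to 130 CPM, summed 466 CPM) and all 10 endothelial markers (5.90 to 84.1 CPM, summed 289 CPM) were also read. Of 12 leukocyte markers 5 were detected, namely Cd4 (5.77 CPM), Ptprc (2.40 CPM), Cd3e (1.23 CPM), Lck (1.17 CPM) and S100a9 (0.843 CPM). All 12 had a sum of 11.9 CPM, and Cd3g, Ms4a1, Cd79a and Nkg7 had 0 counts. Among 6 choroid plexus markers Ttr had 176 CPM and the others between 0.584 and 4.15 CPM. The part of these cell types in the proteasome levels was not tested.

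The alpha ring genes formed a narrow band. Psma7 had 1876 counts (122 CPM, interval 116 to 127), Psma3 had 1707 counts (111 CPM) and Psma4 had 1592 counts (103 CPM). At the lower end Psma1 stood at 83.9 CPM, Psma2 at 76.1 CPM and Psma5 at 1071 counts (69.5 CPM, interval 65.4 to 73.8), with Psma6 between at 91.7 CPM. The highest of these 7 genes thus had 1.75 times the CPM of the lowest. Psma8, which replaces Psma7 in the proteasome of male germ cells, had 0 counts, with an exact interval up to 0.239 CPM. The limit of 3 counts used to draw an observed 0 is 0.195 CPM and is not that interval.

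The constitutive beta ring genes spread a little wider, from 64.4 to 150 CPM. Psmb4 and Psmb1, which have no protease activity of their own, were the highest of the core at 2309 counts (150 CPM, interval 144 to 156) and 2262 counts (147 CPM, interval 141 to 153). Their intervals overlapped. Psmb2, another subunit without activity, was the lowest of the core at 993 counts (64.4 CPM, interval 60.5 to 68.5), and Psmb3 had 81.6 CPM.

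The genes of the catalytic subunits fell into pairs that take the same place in the ring. Psmb5, of the chymotrypsin-like activity, had 2066 counts (134 CPM, interval 128 to 140), and its replacement Psmb8 had 45 counts (2.92 CPM, interval 2.13 to 3.91). Psmb6, of the caspase-like activity, had 1215 counts (78.8 CPM, interval 74.4 to 83.4), and its replacement Psmb9 had 57 counts (3.70 CPM, interval 2.80 to 4.79). Psmb7, of the trypsin-like activity, had 1984 counts (129 CPM, interval 123 to 134), and its replacement Psmb10 had 340 counts (22.1 CPM, interval 19.8 to 24.5). In all 3 pairs the constitutive gene was the higher and the intervals lay apart.

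The size of the gap differed between the pairs. Psmb5 had 45.9 times the counts of Psmb8 (interval 34.2 to 63.1), Psmb6 had 21.3 times those of Psmb9 (16.3 to 28.3), and Psmb7 had 5.84 times those of Psmb10 (5.20 to 6.57). As a share of the counts of its pair, Psmb8 took 2.13%, Psmb9 took 4.48% and Psmb10 took 14.6%. Psmb10 had 7.56 times the counts of Psmb8 (5.52 to 10.6) and 5.96 times those of Psmb9 (4.49 to 8.04). Psmb9 and Psmb8 could not be told apart at this depth, with a ratio of 1.27 (0.842 to 1.92). In bulk tissue, a few cells with much immunoproteasome RNA and many cells with little cannot be told apart.

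**Figure D2:**
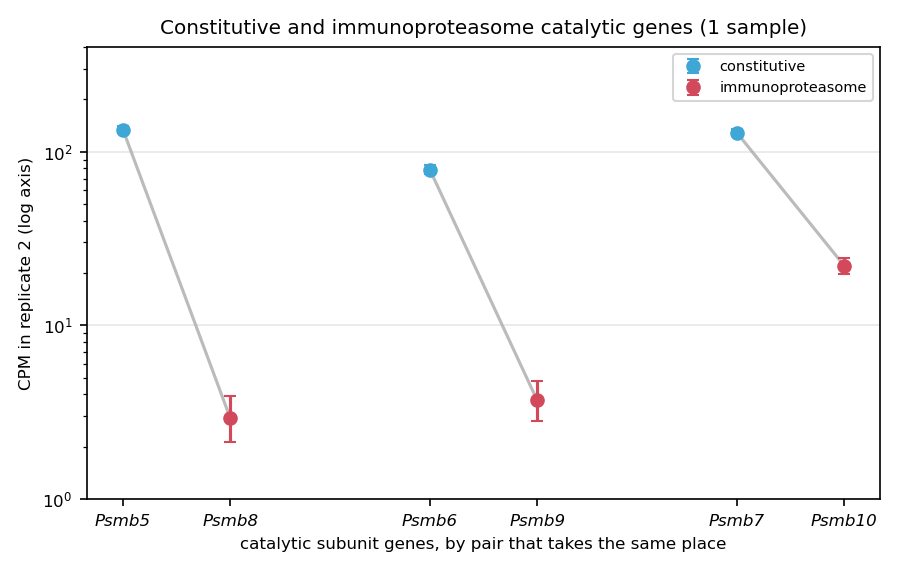
CPM in replicate 2, on a log axis with 95% counting intervals, of the catalytic subunit genes, with grey lines joining each constitutive gene to its immunoproteasome replacement. Psmb5, Psmb6 and Psmb7 lie at 134, 78.8 and 129 CPM, and Psmb8, Psmb9 and Psmb10 at 2.92, 3.70 and 22.1 CPM.

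The 2 lowest immunoproteasome genes sit together in the major histocompatibility complex. In the gene order of assembly GRCr8, Psmb8 lies between Tap2 and Tap1, which encode the peptide transporter of class I antigen presentation, and Psmb9 follows Tap1. All 4 genes of this stretch had low yields, with 27 counts for Tap2 (1.75 CPM), 45 for Psmb8, 65 for Tap1 (4.22 CPM) and 57 for Psmb9. Psmb10 lies on another chromosome, between Ctrl and Lcat. Psmb5 neighbours Psmb11, the gene of a thymus subunit, which had only 16 counts (1.04 CPM, interval 0.593 to 1.69). Psme1 and Psme2 are separated by Emc9 alone, and no other members lay within 4 protein-coding genes of each other.

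Promoter stretches of catalytic genes and of Psme2 are shown because constitutive and interferon-induced subunits are known to respond to different factors. The factor encoded by Nfe2l1 binds antioxidant response elements, with the core TGACNNNGC, and interferon regulatory factors bind elements with the core GAAANNGAAA. Both were searched on both strands in the 250 bases before the annotated start (RefSeq, GRCr8). Not shown are the other members with a match, among them the constitutive genes Psma4, Psmb3 and Psmd7 with the core GAAANNGAAA. Capitals mark the matched core, and each stretch is given 5′ to 3′ on the strand of its gene. The Psmb5 stretch is chr15:32047411-32047459 (minus strand), that of Psmb6 is chr10:55737844-55737887 (plus strand), the Psmb10 stretches are chr19:50743336-50743385 and chr19:50743293-50743329 (minus strand), and that of Psme2, the gene of an interferon-induced activator subunit, is chr15:33052775-33052824 (minus strand).
Psmb5: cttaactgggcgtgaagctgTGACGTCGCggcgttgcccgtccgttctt
Psmb6: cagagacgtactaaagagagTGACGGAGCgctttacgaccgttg
Psmb10, upstream element: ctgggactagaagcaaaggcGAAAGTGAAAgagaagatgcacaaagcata
Psmb10, downstream element: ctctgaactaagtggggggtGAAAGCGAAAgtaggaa
Psme2: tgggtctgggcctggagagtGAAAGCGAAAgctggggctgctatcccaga

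Promoter sequences were matched for 41 of the 46 members. The core TGACNNNGC was found in 7 of these 41 (17.1%), against 11.8% of the 14132 rows with a promoter. The 7 were Psma3, Psmb2, Psmb5, Psmb6, Psmd1, Psmd9 and Psme4. Thus 4 of 14 matched core genes, 3 of 21 regulatory genes and 0 of 3 immunoproteasome genes held it. Beside a share of 11.8% of all rows, 0 of 3 shows no difference. The core GAAANNGAAA was found in 5 of 41 (12.2%) against 2.70%, namely Psma4, Psmb3, Psmb10, Psmd7 and Psme2. By group these were 2 of 14 core, 2 of 21 regulatory and 1 of 3 immunoproteasome genes. Psmb10 held this core at 2 places. The windows of Psmb8, Psmb9 and the constitutive catalytic gene Psmb7 held neither of these cores. The CCAAT box, by its letters CCAAT on either strand, was found in 20 of 41 windows (48.8%) against 35.2%. These are matches of letters, not binding sites, and no measurement here bears on binding.

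The 19S ATPase genes, whose products unfold substrates and open the core, ranged from 87.3 to 183 CPM with a median of 144 CPM. Psmc5 had 2817 counts (183 CPM, interval 176 to 190), Psmc3 had 2597 counts (168 CPM) and Psmc1 had 2490 counts (162 CPM). The lower 3 were Psmc2 with 126 CPM, Psmc6 with 103 CPM and Psmc4 with 1346 counts (87.3 CPM, interval 82.7 to 92.1). All 6 lay within a 2.09-fold range.

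The other 19S subunits were led by the large scaffold genes of the base. Psmd2 had the most counts of all members, 3080 (200 CPM, interval 193 to 207), and Psmd1 had 2456 counts (159 CPM, interval 153 to 166). Both are known as the longest proteins of the 19S particle, and the CPM is not corrected for that. The ubiquitin receptor gene Psmd4 had 118 CPM. Among the 8 lid genes Psmd3 was the highest at 2140 counts (139 CPM). The lowest were Psmd8 at 100.1 CPM, Psmd12 at 94.6 CPM and Psmd14 at 1036 counts (67.2 CPM, interval 63.2 to 71.4). Psmd14 encodes the enzyme that cuts the ubiquitin chain off the substrate. Between them lay Psmd6, Psmd13, Psmd7 and Psmd11 at 106 to 129 CPM.

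The chaperones that help assemble the 19S base, and are not part of the finished particle, had lower yields. Psmd5 had 521 counts (33.8 CPM, interval 31.0 to 36.8) and Psmd9 had 461 counts (29.9 CPM, interval 27.2 to 32.8), and these intervals overlapped. Psmd10, which encodes gankyrin, had only 43 counts (2.79 CPM, interval 2.02 to 3.76), so Psmd5 had 12.1 times its counts (8.87 to 16.9). All 17 structural 19S genes lay above all 3 chaperone genes. The files' own KEGG annotation places 40 of the 46 members in the proteasome pathway, and these chaperones are among the 6 that it leaves out.

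Among the genes of the alternative caps, Psme3 and Psme4 had more counted reads than Psme1 and Psme2. Without lengths for these 4 genes, their order in RNA molecules is not known and may differ. Psme3, whose product acts in the nucleus, had 1701 counts (110 CPM, interval 105 to 116), and Psme4, the gene of the PA200 activator, had 1036 counts (67.2 CPM, interval 63.2 to 71.4). Psme1 and Psme2, which encode the interferon-induced PA28 cap, had 537 counts (34.8 CPM, interval 31.9 to 37.9) and 361 counts (23.4 CPM, interval 21.1 to 26.0). Psme3 had 3.17 times the counts of Psme1 (2.87 to 3.50) and 4.71 times those of Psme2 (4.20 to 5.29). The interferon-induced members Psme1, Psme2 and Psmb10 thus lay between 22.1 and 34.8 CPM, above Psmb8 and Psmb9.

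Other members match by letters alone. Psmc3ip, a gene of meiotic recombination, had 70 counts (4.54 CPM), and Psme3ip1, which encodes a binding partner of the Psme3 protein, had 679 counts (44.0 CPM). Psmb6l1, annotated as similar to Psmb6, had 35 counts (2.27 CPM), which is 2.88% of those of Psmb6. Leaving out these 3 rows, 42 of 43 subunit genes were detected.

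Copies in the genome could share reads with some of these genes, which was not tested. The reference table lists 48 further symbols of this family without a row here, and they are copies of 18 members. By symbol 44 of them are pseudogenes. Of the other 4, Psmb3l3 and Psme1l1 are also annotated as pseudogenes, and Psmb3l1 and Psmb3l2 as protein-coding genes. Psmb3 has 10 such copies, Psma6 has 5 and Psme3 has 4. The sources used here do not state how reads shared with copies were counted. The 18 members with such a copy had a median of 93.1 CPM, and the 24 detected subunit genes without one had 112 CPM.

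No replicate holds a member besides replicate 2, so the spread between samples was read from other genes. Replicates 2 and 3 shared 192 genes that averaged 100 counts or more. Nearly all their symbols begin with A, because the rows of replicate 3 end early, so they are not a sample of all genes. After scaling by the median ratio, the replicates differed by 1.10-fold at the median and by 1.46-fold at the 95th percentile of these genes, and by 8.40-fold at most, for Ace. For the 70 genes that reached 1000 counts in replicate 2 the 95th percentile was 1.23-fold, and over 56 genes with 10 to 100 counts it was 2.51-fold. Set beside 1.46-fold, 11 of the 14 detected core genes lay within that distance of the core median, with Psmb4 and Psmb1 above and Psmb2 below. Of the 17 structural 19S genes 14 did, with Psmd2 and Psmc5 above and Psmd14 below. Most of these genes have at least 1000 counts (13 of the 14 core and all 17 of the 19S genes), and within the 1.23-fold of such genes lay only 5 of the 14 core and 9 of the 17 structural 19S genes. All 3 catalytic pairs were farther apart than 2.51-fold, and the pair of Psmb7 and Psmb10 was closer than the 8.40-fold seen for Ace. These measures are unlike. The spread compares the same gene between replicates 2 and 3, whereas the distances lie between different genes within replicate 2 and include transcript length. The spread therefore cannot tell whether 1 gene differs from another in RNA level. In the order of all detected members, 38 of 44 neighbouring pairs had overlapping counting intervals.

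**Figure D3:**
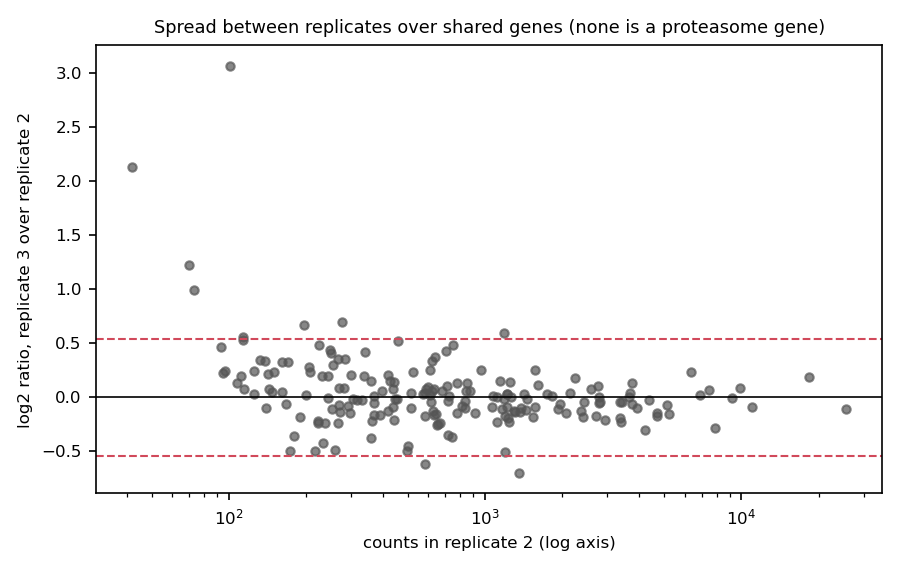
Log2 ratio of replicate 3 over replicate 2, scaled by the median ratio, against the counts in replicate 2 (log axis) for 192 shared genes, none of them a proteasome gene. The dashed lines mark the 95th percentile of the size of the ratio, 0.54 on the log2 scale, and the points lie closer to 0 at higher counts.

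Genes that build and regulate the proteasome were read alongside. Detection in this and the following lists stands beside 77.0% of all rows. Of 9 genes of core assembly and inhibition 7 had a row and all 7 were detected, with a median of 20.2 CPM. Akirin2, known for the import of proteasomes into the nucleus, had 101 CPM, the inhibitor gene Psmf1 had 43.3 CPM and the assembly chaperone gene Psmg1 had 29.5 CPM. Pomp, the maturation factor of the core, had only 13 counts (0.843 CPM), and a row annotated as similar to it, without a symbol, had 116 counts (7.52 CPM). Paaf1 and Ecpas were not analysed here.

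All 11 listed ubiquitin receptors, shuttles and proteasome-bound enzymes were detected, with a median of 128 CPM. The shuttle genes Rad23b, Ubqln1 and Ubqln2 were the highest at 300.0, 285 and 281 CPM. Of the deubiquitinases that act at the proteasome, Usp14 had 214 CPM and Uchl5 had 27.2 CPM, and the docking receptor gene Adrm1 had 101 CPM. Sem1, a small 19S lid subunit gene that the name rule leaves out, had 47.8 CPM. The polyubiquitin gene Ubb had 1498 CPM, and Uba1, which encodes the main ubiquitin-activating enzyme, had 298 CPM.

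The list of subunit gene regulation had 8 of 8 genes detected, with a median of 63.4 CPM. Maff, with 10 counts (0.649 CPM), was just at the limit of detection. Vcp, encoding the segregase that extracts proteins from membranes, had 356 CPM. Nfe2l1, the transcription factor gene that raises subunit expression when the proteasome is impaired, had 277 CPM. Nfe2l2 had 19.1 CPM, and Mafg, whose product pairs with these factors, had 101 CPM.

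Antigen processing genes were split in level. All 9 were detected with a median of 13.0 CPM. The chaperone genes Canx (701 CPM), Calr (601 CPM) and Pdia3 (284 CPM), which also serve general protein folding, were the highest. B2m had 264 CPM, while Tapbp and Erap1 had 13.0 and 12.9 CPM. Detection held for 12 of 13 interferon pathway genes, whose median was 35.7 CPM. Jak1 had 224 CPM, Ifnar1 had 88.1 CPM and Ifngr2 had 52.8 CPM. The interferon-induced regulators Irf1 and Nlrc5 had 7.78 and 1.95 CPM, and Ciita, with 4 counts, was not detected.

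Other protein complexes give a scale for these yields. The COP9 signalosome, built like the 19S lid, had 10 of 10 genes detected with a median of 91.9 CPM, and the chaperonin TRiC had 8 of 8 with a median of 168 CPM. For the mitochondrial ribosome, 71 of 74 protein genes were detected, and their median was 32.8 CPM. The standard deviation of log2 CPM over genes was 0.41 for the core, 0.41 for the structural 19S genes, 0.38 for TRiC, 0.74 for COP9 and 0.80 for the mitochondrial ribosome. Over all detected genes the median was 25.2 CPM and this deviation was 2.36. With 1 sample, no test of these differences could be made. The deviations also rest on unlike sets. The core leaves out the undetected Psma8, and the structural 19S genes leave out the chaperones. COP9 keeps both Cops7a (151 CPM) and Cops7b (24.8 CPM), and its deviation without Cops7b was not computed. The deviations therefore do not rank the complexes.

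**Figure D4:**
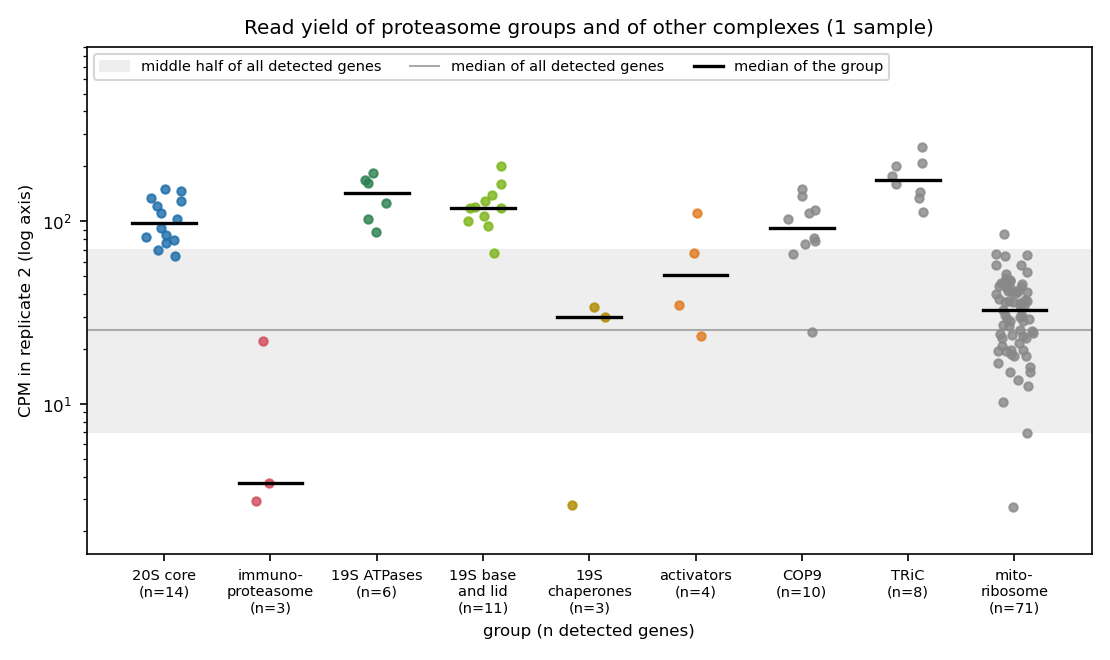
CPM in replicate 2 (log axis) of detected genes by group, 1 point a gene, with black bars at group medians and the grey band spanning the middle of all detected genes from the lower to the upper quartile. The medians of the core, 19S ATPases and 19S base and lid (97.5 to 144 CPM) lie beside COP9 (91.9 CPM) and TRiC (168 CPM). The 19S chaperone median is 29.9 CPM, and the immunoproteasome median (3.70 CPM) lies under the band.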

How the data were processed

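Hippocampal RNA was isolated with TRIzol and made into libraries from bead-captured mRNA with kits from Vazyme and MGI, per the labels' protocols. The submitters' processing notes name HISAT2, Bowtie2, SAMtools, HTSeq, StringTie, Cufflinks, Trimmomatic and DESeq, with neither version nor role. No source used here states the genome build or whether counting used strand. The authors deposited 1 table of raw, unnormalized whole-number counts for each sample. Those of replicates 1 and 3 are cut short in the middle of a row, behind its count, so their depth is unknown.

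Symbols came from the RefSeq table of GRCr8 by gene identifier (17515 of 18560 rows). CPM, exact intervals and ratios of counts (conditional binomial) were computed in Python 3.11.15 with SciPy 1.17.1, and the intervals were tested on simulated data. They cover counting error only, since they come from the counts of 1 sample. PCR copies of a molecule cannot be fully recognised without molecular identifiers. The design assumed levels per kilobase of coding length, but no length was given, so CPM was used. edgeR 4.0.16 and DESeq2 1.42.0 gave alternative scales for replicates 2 and 3 only. No count test was run, as the members have 1 sample.

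The members and lists were chosen with earlier results of these data known. Named in full are the catalytic pairs, the 3 highest and 3 lowest genes of each structural group by CPM, members under 10 counts, and the 3 highest and any undetected genes of each other pathway list. Some results that this rule selects are not reported here. Other genes named were chosen after their values were seen. The labels do not say that samples are separate animals.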

Additional observations from a re-analysis of the deposited data

Results flagged for a closer look

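A row annotated as similar to the proteasome maturation protein, with no symbol in the reference table and so in no list, held 116 counts. This lies above the limit of 3 counts used for an observed 0. The named gene Pomp had 13 counts, and how reads were divided between these rows was not tested.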

How the results depend on the processing

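All member values rest on replicate 2: leaving out replicate 1 or 3 changed none of them, and without replicate 2 none exists. With a minimum of 1 count 45 members were detected, with 50 counts 41, and 42 when only subunits proper were kept, against 45. Medians over members depended on the summary for small or mixed groups. Taken as the mean of log2 levels, the immunoproteasome stood at 6.20 CPM in place of 3.70 and the regulatory genes at 80.9 CPM in place of 108. A mean, unlike a median, moves with the farthest members, here Psmb10 and Psmd10. The core median was 99.2 CPM by that mean and 91.7 CPM with Psma8 counted. The ratio of Psmb9 to Psmb6 was 0.0456 with the counts of Psmb6l1 added to Psmb6, an alternative chosen after seeing the data, against 0.0469. The 95th percentile of replicate differences ranged from 1.45-fold to 1.64-fold over other scales and a lower filter, and was 1.23-fold over genes with at least 1000 counts, chosen after seeing the data. Levels per kilobase of coding or transcript length were planned and not run, as no lengths were given. No paired analysis was possible because there is a single group.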
